A study of Mus musculus with 9 samples.

Results

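The genes described here encode the signalling part of the T cell receptor and the surface molecules that act beside it: Cd3d, Cd3e, Cd3g, Cd4, Cd8a, Cd8b1, Cd5, Cd6, Lck and Il7r. Every probe of the array that is no control spot and whose gene name, or whose accession matched to a current symbol, is one of these 10 names was taken. This gave 18 probes among 41174 on the array, and 10 genes among 27573 gene names. Cd3d, Cd3g, Cd5 and Lck had 1 probe each, Cd3e, Cd4, Cd6 and Cd8b1 had 2, and Cd8a and Il7r had 3. All samples came from the same 3 mice (832, 833 and 834), which were female and of the Balb/c athymic strain. Blood of each mouse was taken on day 0, before Hepa1-6 cells, a mouse hepatoma line, were injected under the skin, and again on day 10. Ground tumour tissue of day 10 gave a fraction enriched for tumour-infiltrating inflammatory cells, called the TIC fraction here. Sample RNA carried Cy5 on all 9 arrays. Cy3 carried a reference of total blood RNA from female C57Bl/6 mouse without treatment. Sample and reference therefore differ in strain, thymus and dye at once, and these cannot be told apart in a ratio to the reference, since no array had the dyes swapped. The labels name no allele behind the athymic state and no ages.

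The T cell receptor has no signalling tail of its own. The CD3 chains, assembled around the receptor as paired subunits, carry the motifs that are phosphorylated once a peptide on an MHC molecule is bound. CD4 and CD8 are the coreceptors that touch MHC class II and class I molecules and bring the kinase Lck to the complex, and CD5 and CD6 are related scavenger-receptor proteins of the T cell surface that adjust the strength of the signal. Most T cells mature in the thymus, so athymic mice have few of them, although T-like cells that matured elsewhere, NK cells and innate lymphoid cells can carry some of the same transcripts.

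Several members lie beside each other in the mouse genome. Cd3d, Cd3e and Cd3g form a cluster on chromosome 9, Cd8a and Cd8b1 are neighbours on chromosome 6, and Cd5 and Cd6 are neighbours on chromosome 19. Upstream sequences from RefSeq, assembly GRCm38.p6, were on hand for 7 of the 10 members. The 250 bases before the start of the 3 CD3 genes are shown because these genes sit in 1 cluster and encode subunits of 1 complex, while their ratios to the reference were unequal. Capitals mark matches, on either strand, to GGAAGT (a core bound by Ets factors), CACCTG (an E-box) and CTTTGA (a core bound by Tcf and Lef factors).
Cd3d, chr9:44981536-44981785, plus strand: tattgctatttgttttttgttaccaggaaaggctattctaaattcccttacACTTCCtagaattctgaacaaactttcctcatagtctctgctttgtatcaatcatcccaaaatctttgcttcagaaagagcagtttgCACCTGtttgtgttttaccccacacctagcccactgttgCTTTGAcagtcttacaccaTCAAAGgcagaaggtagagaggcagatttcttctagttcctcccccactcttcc
Cd3g, chr9:44980432-44980681, minus strand: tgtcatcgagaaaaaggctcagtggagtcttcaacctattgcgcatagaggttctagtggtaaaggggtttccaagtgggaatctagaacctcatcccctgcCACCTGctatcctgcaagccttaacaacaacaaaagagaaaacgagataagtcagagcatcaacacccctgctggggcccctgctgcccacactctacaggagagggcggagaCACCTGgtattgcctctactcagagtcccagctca
Cd3e, chr9:45009612-45009861, minus strand: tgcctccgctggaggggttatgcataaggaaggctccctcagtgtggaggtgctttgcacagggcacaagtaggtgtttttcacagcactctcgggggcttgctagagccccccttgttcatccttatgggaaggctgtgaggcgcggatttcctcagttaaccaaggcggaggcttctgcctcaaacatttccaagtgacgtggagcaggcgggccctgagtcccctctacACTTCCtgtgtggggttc
TATAAA (the TATA box) and TGTGGT (a core bound by Runx factors) were searched too, and none of the matches to the 5 motifs overlapped another. Upstream of Cd3d were 1 match to GGAAGT, read there as ACTTCC, 1 match to CACCTG and 2 matches to CTTTGA, of which the second reads TCAAAG. Upstream of Cd3g were 2 matches to CACCTG, and upstream of Cd3e was 1 match to GGAAGT, again read as ACTTCC. Over the 7 members, which have 8 windows because Lck has 2, GGAAGT was found in 6 windows of 5 genes and CACCTG in 4 windows of 4 genes. CTTTGA and TGTGGT were each found in 1 window. In 32851 RefSeq windows of the same length, GGAAGT was present in 19.7%, CACCTG in 17.2%, CTTTGA in 13.8%, TGTGGT in 14% and TATAAA in 12.4%. These matches are descriptions of the letters and not evidence of binding.

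On each array 24.3% to 36.9% of spots were well above background in Cy5 for day 0 blood, 14.2% to 21% for day 10 blood and 48.2% to 55.1% for the TIC fraction, against 40.2% to 50.4% in Cy3. The median net Cy5 intensity, meaning mean spot signal minus local background, was 3.29 to 5.57 on day 0, 2.1 to 2.66 on day 10 and 9.84 to 22.1 in the TIC fraction. Blood samples thus had dim Cy5 channels, and day 10 blood the dimmest. In the samples, erythroid probes were called well above background on 14 to 16 of 19 in blood and on 8 to 12 in the TIC fraction. Of 11 hepatoma probes 1 to 5 were above background in blood and 9 to 11 in the TIC fraction. For macrophage genes the counts were 4 to 10 of 15 probes in blood and 13 or 14 in the TIC fraction. The arrays lay on 3 slides: TIC 832 on the first, the day 0 blood of 832 and 833 with TIC 833 and 834 on the second, and day 0 blood of 834 with all day 10 blood on the third.

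Detection of the members differed between the channels. In the reference, 14 of the 18 probes were well above background on all 9 arrays. In Cy5 the number above background was 8, 5 and 4 for the day 0 blood of mice 832, 833 and 834. It was 3, 5 and 1 for day 10 blood and 11, 9 and 9 for the TIC fraction. Cd3e was the single member with a probe above background in Cy5 on all 9 arrays, and Cd3d and Lck reached this on 8, both missing the day 10 blood of 834. Ratios to the reference were tested for 15 probes of 9 genes, and differences between sample groups for 9 probes of 8 genes. Cd4, the coreceptor of helper T cells, was not measured: neither of its 2 probes was well above background on any array in either channel, the reference blood included, although 1 of them is printed on the array 10 times. Net intensities of the 10-fold printed Cd4 probe were 12.2 to 17.4 in Cy3 and 0.329 to 13.3 in Cy5.

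**Figure D1:**
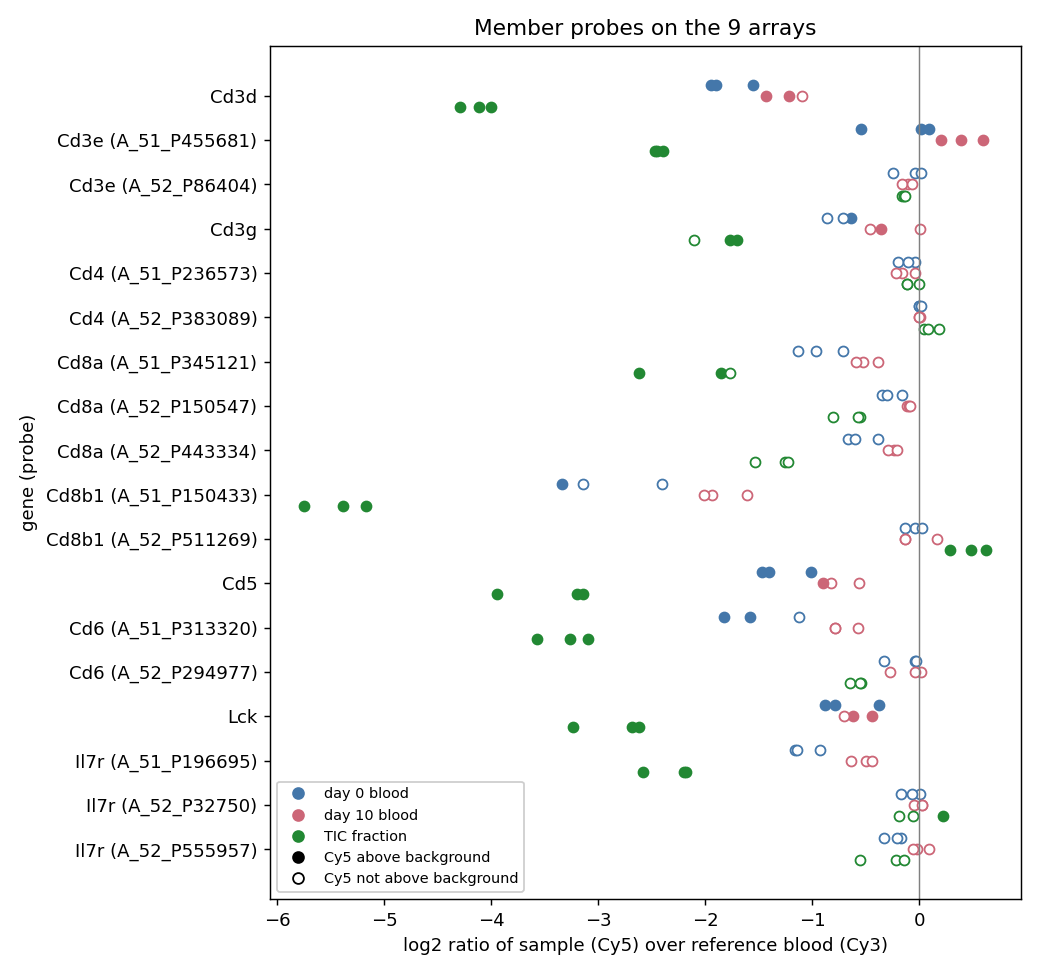
Log2 ratio of sample (Cy5) over reference blood (Cy3) for all 18 probes, with 1 point per array, coloured by group and filled where Cy5 was well above background. Most probes of the TIC fraction lie farthest left, with Cd8b1 between -5.75 and -5.17, while Cd4 stays at 0 with open points.

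Against the reference, day 0 blood of the athymic mice was lower for 10 of the 15 member probes and higher for none (limma, Benjamini-Hochberg adjusted p under 0.05, n = 3 mice). Of all 23491 probes tested, 6.81% were called lower and 4.59% higher in this comparison, 11.4% in all. The 10 probes belong to 8 genes: Cd3d, Cd3g, Cd8a, Cd8b1, Cd5, Cd6, Lck and Il7r. The median log2 ratio was -0.68 over the 15 member probes and -0.01 over all probes. Day 10 blood had 5 member probes called lower and none higher, against 1.59% and 1.75% of all probes and 3.34% in all, with a median of -0.27. The TIC fraction had 13 called lower and 1 higher, against 37.5% and 36% of all probes and 73.5% in all, with a median of -2.08. With 73.5% of all probes called in the TIC fraction, a call there does not set a probe apart from the rest of the array. All these ratios share 1 reference RNA, so the tests leave out the spread between reference animals. Less RNA of a gene in bulk blood can mean fewer cells of a type or less RNA per cell, which cannot be told apart here.

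Among the CD3 chains, Cd3d showed the largest deficit. Its probe lies at chr9:44737083-44737314 (mm8). In the reference its net Cy3 intensity was 524 to 644 over the 9 arrays. Net Cy5 was 48, 27 and 13.2 in day 0 blood of 832, 833 and 834. It was 7.66, 8.69 and 3.93 in day 10 blood and 166, 20.8 and 50.1 in the TIC fraction. Unscaled sample signal was thus far under reference signal on every array. On the blood arrays the whole Cy5 channel was dim, with median net intensities of 2.1 to 5.57 against 18.1 to 22.3 in Cy3. After loess normalization within each array, the log2 ratios were -1.90, -1.95 and -1.55 on day 0, -1.22, -1.43 and -1.09 on day 10 and -4.12, -4.29 and -4.00 in the TIC fraction. All 9 values were below 0 and the 3 groups did not overlap with loess. With median centring the TIC values, at -2.98 to -1.81, overlapped those of both bloods. The share of all probes whose groups separated with loess was not counted. The mean was -1.80 ± 0.10 (SE, n = 3) on day 0, a 3.49-fold deficit with an adjusted p of 6.42e-05, -1.25 ± 0.10 on day 10 (0.000736) and -4.14 ± 0.10 in the TIC fraction (4.24e-08). Over the alternatives of processing the ratio stayed below 0, from -3.04 to -1.63 on day 0 and from -3.56 to -1.24 on day 10.

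Cd3e, the chain that pairs with both other CD3 subunits, was not called lower in blood. The brighter of its 2 probes, at chr9:44750166-44750225, gave net Cy3 intensities of 165 to 223. Net Cy5 was 121, 38.5 and 39.2 on day 0, 49.1, 40.8 and 30.4 on day 10 and 58.7, 22.6 and 26.9 in the TIC fraction, well above background on all 9 arrays. The log2 ratios were 0.09, -0.54 and 0.02 on day 0 and 0.60, 0.21 and 0.39 on day 10, against -2.45, -2.47 and -2.39 in the TIC fraction. With loess both bloods thus lay near 0, with the value of mouse 833 on day 0 the lowest, and the TIC values lay far below either. With median centring the TIC values, at -1.53 to -1.04, overlapped those of both bloods. The mean of -0.14 ± 0.12 on day 0 was not called (adjusted p 0.586, 95% interval -0.42 to 0.14), nor was 0.40 ± 0.12 on day 10 (0.163, 95% interval 0.12 to 0.68). The TIC fraction was lower, at -2.44 ± 0.12 (4.73e-07), a 5.42-fold deficit. The blood values depended on the scaling: with each array's log ratios centred on the median instead of loess, Cd3e was called lower on both days, at -0.89 and -1.15, while the deposited log ratio called it higher on day 10, at 0.87, as did a fit to day 10 arrays alone, at 0.40. Without the day 0 blood of 833 the day 10 ratio of 0.40 was called higher. The second Cd3e probe was dim, with net Cy3 of 16.8 to 24.8 and no array above background in Cy5, and was not called in any group with the main settings. In the TIC fraction (-0.14 ± 0.06) it was called lower without the day 0 blood of 832, with the deposited log ratio (-1.83) and with median centring (-0.25).

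Cd3g, whose probe spans chr9:44724628-44725212, lay between Cd3d and Cd3e in blood with loess, and above both in the TIC fraction. Net Cy3 was 122 to 139. Net Cy5 was 27.5, 9.3 and 1.66 on day 0 and 1.33, 8.32 and 9.86 on day 10. In the TIC fraction it was 117, 13 and 44.6, a spread of several-fold between arrays of 1 group. Log2 ratios were -0.64, -0.86 and -0.71, then -0.46, -0.36 and 0.01, and then -1.77, -2.10 and -1.70. Day 0 blood was lower at -0.73 ± 0.11 (adjusted p 0.00335), although Cy5 was above background there on 1 of 3 arrays, and this call was lost when spots with non-uniform background were kept (-0.59, adjusted p 0.11). Day 10 blood at -0.27 ± 0.11 was not called (0.342) and the TIC fraction was lower at -1.86 ± 0.11 (1.02e-06).

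The log2 ratios of the CD3 chains were therefore unequal on the same arrays. The log2 ratio of Cd3e exceeded that of Cd3d on 9 of 9 arrays, by 1.66 ± 0.30 (SD, n = 3) on day 0, 1.65 ± 0.17 on day 10 and 1.70 ± 0.11 in the TIC fraction. With median centring the gap was also above 0 on all 9, from 0.77 to 2.04, and with the deposited log ratio from 0.98 to 5.48. The gap between Cd3g and Cd3d was above 0 on 9 of 9 arrays with loess (0.76 to 2.35) and with median centring (1.48 to 1.91), and on 8 of 9 with the deposited ratio. The gaps are between ratios of different probes, and no test was made of them. These probes differ in reference brightness, with mean net Cy3 of 569 for Cd3d, 190 for Cd3e and 130 for Cd3g. The offset of 50 added in processing pulls ratios toward 0, more so for dim probes. With the deposited ratio the day 0 gap between Cd3g and Cd3d was 0.38 ± 0.81 (SD, n = 3). There Cd8a (-4.79, brightest probe) and Il7r (-4.18) lay below Cd3d (-3.04). The part of brightness in the gaps was not tested.

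The CD8 coreceptor of cytotoxic T cells is a pair of an alpha and a beta chain. The beta chain gene Cd8b1 had the largest deficit of all members. Its probe at chr6:71266583-71266641 was bright in the reference, at 924 to 1130 net Cy3. Net Cy5 was 10.9, 6.35 and 3.40 on day 0, 2.75, 9.34 and 4.24 on day 10 and 63.6, 16 and 13.2 in the TIC fraction. Cy5 was above background on 1 day 0 array, no day 10 array and all 3 TIC arrays. Log2 ratios were -3.34, -3.14 and -2.40 on day 0, -1.94, -2.01 and -1.61 on day 10 and -5.75, -5.17 and -5.39 in the TIC fraction. All 9 were far below 0 and with loess the groups did not overlap. With median centring all 3 overlapped, at -4.02 to -3.90, -3.95 to -3.76 and -4.01 to -3.47. Day 0 blood was lower, at -2.96 ± 0.18 (adjusted p 8.97e-05), 7.78-fold. Day 10 blood, with no array above background, was 3.61-fold lower (0.00158). Where a sample group was dim on all its arrays, as here, the fold sets the reference against dim signal. It is the fold of the mean ratio and no lower limit. The TIC fraction was 43.3-fold lower, at -5.44 ± 0.18 (9.28e-08). The size depended on the processing, with log2 ratios over the alternatives of -5.99 to -2.71 on day 0, -4.98 to -1.83 on day 10 and -7.34 to -3.76 in the TIC fraction, all of them called.

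A second probe named Cd8b1 behaved in the opposite way. The files place it at chr5:115404420-115404479, away from the chromosome 6 position of the other Cd8b1 probe and of the Cd8a probes, so its name is uncertain. Its net Cy5 was 207, 151 and 103 in the TIC fraction, all above background, and at most 8 on the 6 blood arrays, none above background. Net Cy3 was 21.7 to 32.8. The TIC fraction was called higher than the reference at 0.47 ± 0.09 (adjusted p 0.00113), and this was the 1 member probe called higher. The day 0 and day 10 ratios of -0.05 and -0.03 were not called.

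Cd8a, the alpha chain, was not above background in Cy5 on any blood array with any of its 3 probes, which all lie on chromosome 6. The brightest, at chr6:71306845-71306904, gave 102 to 155 in Cy3. Net Cy5 was 2.2, 3.14 and 1.83 on day 0, 1.23, 2.31 and 0.738 on day 10 and 23.3, 9.67 and 8.32 in the TIC fraction, where 2 of 3 arrays were above background. Log2 ratios were -1.13, -0.96 and -0.71, then -0.52, -0.59 and -0.38, and then -2.62, -1.85 and -1.77. Day 0 blood was 1.91-fold lower than the reference (adjusted p 0.006), a call lost without the day 0 blood of 832 (0.0518) or 833 (0.0503). Day 10 blood, at -0.50 ± 0.15, was not called (0.177), and the TIC fraction was 4.23-fold lower (4.5e-06). This probe was called lower on day 10 without TIC 832, in a fit to day 10 arrays alone (0.00127), with the deposited ratio and with median centring. The Cd8a probe that is printed 10 times, at chr6:71308426-71308485, was above background in Cy5 on no array. It was 1.46-fold lower on day 0 (0.00346, but 0.0548 and not called with all spots in normexp). On day 10 it was not called (-0.24, 0.214, but 0.0201 in a fit to day 10 arrays alone). In the TIC fraction it was 2.53-fold lower (1.25e-06). The third Cd8a probe, also above background in Cy5 on no array, was 1.21-fold lower on day 0 (0.036). That call was lost in 7 of the 9 fits that leave out 1 array, with an adjusted p up to 0.191. Among them were each day 0 and each day 10 array and TIC 834. It was also lost with all spots in normexp (0.105) and in a fit to day 0 arrays alone (0.0707). All 3 probes of Cd8a were called lower in the TIC fraction, and none was called on day 10 with the main settings, while median centring and the deposited ratio called all 3 lower on day 10.

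**Figure D2:**
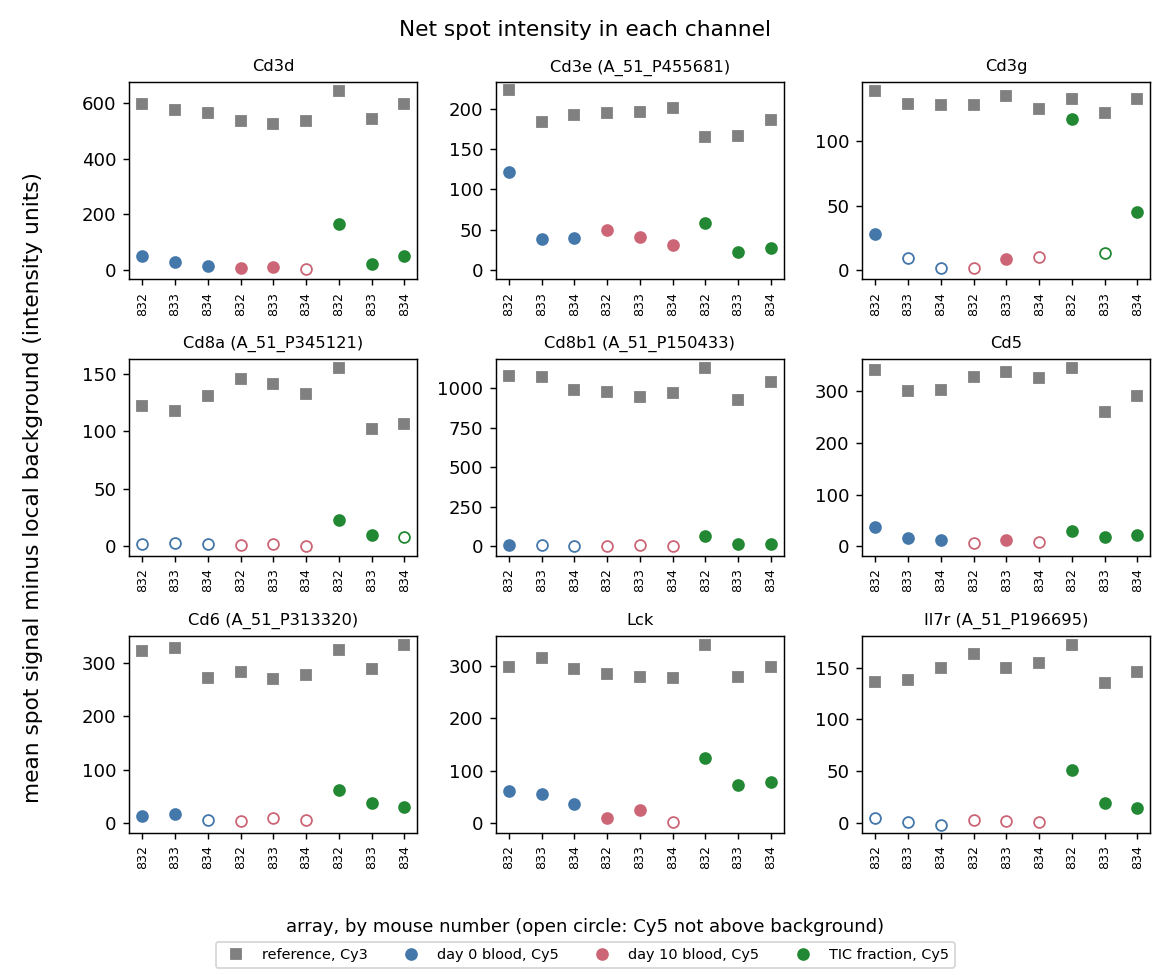
Net intensity (mean spot signal minus local background, intensity units) of the brightest probe of 9 members on each array: grey squares are the reference in Cy3, circles the sample in Cy5, open where not above background. Reference signal is steady across the arrays, as for Cd3d at 524 to 644, while sample signal is lower than reference signal on each array, and Cd3d reached 166 on the TIC array of 832. Intensities are not scaled between the dyes, and the Cy5 channel of blood was dim as a whole.

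Cd5 and Cd6, the paired modulators of receptor signalling, were lower on both days. The Cd5 probe, at chr19:10785172-10785190, gave 260 to 345 in Cy3. Its net Cy5 was 37.6, 17.1 and 12 on day 0, 7.18, 12.8 and 8.56 on day 10 and 29.7, 18.9 and 22 in the TIC fraction. Cd5 is also made by the B-1 subset of B cells. The log2 ratios of Cd5 were -1.40, -1.47 and -1.01 on day 0, -0.82, -0.90 and -0.56 on day 10 and -3.95, -3.20 and -3.14 in the TIC fraction, with no overlap between groups. With median centring the TIC values overlapped those of both bloods. Cd5 was 2.45-fold lower on day 0 (adjusted p 0.00159) and 10.8-fold lower in the TIC fraction (3.43e-07). The day 10 call, at -0.76 ± 0.16 (0.0412), was lost without any 1 of the 3 day 10 arrays, of the day 0 blood of 832 or 833, or of TIC 834, with an adjusted p up to 0.298, and with all spots in normexp (0.0719) or no filter on dim probes (0.0612).

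For Cd6, the brighter probe at chr19:10856446-10856505 gave 271 to 335 in Cy3. Its log2 ratios were -1.82, -1.58 and -1.12 on day 0, -0.79, -0.79 and -0.57 on day 10 and -3.57, -3.10 and -3.26 in the TIC fraction. Net Cy5 was 13.4, 16.5 and 5.55, then 4.73, 10 and 5, and then 61.5, 38.3 and 31.1. Cd6 was thus below the reference on all arrays, and no day 10 array was above background in Cy5. It was 2.84-fold lower on day 0 (adjusted p 0.000349), 1.65-fold lower on day 10 (0.0246) and 9.92-fold lower in the TIC fraction (1.93e-07). The day 10 call was lost without any 1 of the 3 day 10 arrays (adjusted p up to 0.201) and with all spots in normexp (0.208). The dimmer Cd6 probe was called in the TIC fraction, where it was 1.5-fold lower (0.000246) with no array above background in Cy5. It was not called in either blood (-0.13 and -0.10).

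Lck, the kinase that phosphorylates the CD3 motifs, showed a modest deficit in blood. Its probe at chr4:129050906-129050965 gave 276 to 340 in Cy3. Net Cy5 was 61.3, 55.8 and 37.3 on day 0, 10, 24.1 and 1.45 on day 10 and 124, 71.9 and 77.9 in the TIC fraction. Log2 ratios were -0.88, -0.79 and -0.37 on day 0, -0.62, -0.44 and -0.70 on day 10 and -3.24, -2.68 and -2.62 in the TIC fraction. With loess the values of both bloods overlapped and the TIC values lay below both. With median centring the TIC values lay above both. Lck was lower on day 0 at -0.68 ± 0.14 (adjusted p 0.0144), a call lost without the day 0 blood of 832 (0.101) or 833 (0.11) and with the deposited ratio (-1.13, 0.0781). On day 10 it was -0.59 ± 0.14 and not called (0.0628), but it was called lower without TIC 832 or TIC 833 and in 5 of 9 other alternatives: all spots in normexp (0.0463), the Cy3 filter on all 9 arrays (0.0481), a fit to day 10 arrays alone (0.000724), the deposited ratio (0.00232) and median centring (1.11e-05). The TIC fraction was 7.19-fold lower (3.93e-07). Lck is also expressed in NK cells.

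Il7r, the receptor for the survival cytokine interleukin 7, is carried by naive T cells, innate lymphoid cells and early B cells. Its brightest probe, at chr15:9450946-9451005, gave 135 to 172 in Cy3 and was above background in Cy5 on no blood array and on all 3 TIC arrays. Net Cy5 was 4.57, 1.32 and -1.64 on day 0, 3.05, 1.97 and 0.652 on day 10 and 51.2, 19 and 14.3 in the TIC fraction. Log2 ratios were -1.16, -1.14 and -0.93, then -0.50, -0.64 and -0.44, and then -2.58, -2.20 and -2.18, without overlap. With median centring the day 0 values overlapped those of both other groups. Il7r was 2.11-fold lower than the reference on day 0 (adjusted p 0.000284), 1.44-fold lower on day 10 (0.0186) and 4.99-fold lower in the TIC fraction (1.84e-07). The day 10 call was lost without any 1 of the 3 day 10 arrays (adjusted p up to 0.175) and with all spots in normexp (0.204). Of the other Il7r probes, A_52_P32750 was not tested, since Cy3 was above background on no array. A_52_P555957 was called in the TIC fraction alone, 1.23-fold lower (0.0107) with no array above background in Cy5. That call was lost without TIC 832 (0.0674) and in a fit to TIC arrays alone (0.103). Without TIC 832 this probe was called lower in day 0 blood as well (-0.24).

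A description that no scaling of an array can change is the place of a probe among all probes of its own channel. This was added after the data had been seen. In the reference channel the mean percentile of net intensity was 96.2 to 96.4 for Cd3d in the 3 groups of arrays. In the sample channel it was 83.6 ± 2.37 (SD, n = 3) on day 0, 77.3 ± 6.54 on day 10 and 66.7 ± 8.94 in the TIC fraction. Cd3d thus ranked lower in sample than in reference on all 9 arrays. Cd3e ranked at 90.7 ± 3.8, 94.9 ± 0.833 and 61 ± 2.97, against 90 to 92.1 in the reference. It stood near its reference place on day 0 and below it on all 3 TIC arrays. On all 3 day 10 arrays it stood slightly above it, at 94 to 95.6 against 91.9 to 92.2. Cd8b1 (chromosome 6) ranked at 58.6 ± 7.25, 69.4 ± 13.5 and 57 ± 5.31 against 97.5 to 97.6, and Cd5 at 80.3 ± 3.58, 84.3 ± 3.1 and 56.8 ± 3.48 against 93.3 to 94.6. Lck ranked at 90.1 ± 1.86, 72.9 ± 26.8 and 72.1 ± 1.81 against 93.5 to 94. Over all 18 probes, 14 to 18 ranked lower in Cy5 than in Cy3 on each blood array and 15 or 16 on each TIC array. The same count was not made over all probes of the array, so it does not set the members apart from them. Many of these are ranks of dim signal, since 1 to 8 of the 18 probes were above background in Cy5 on a blood array.

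**Figure D3:**
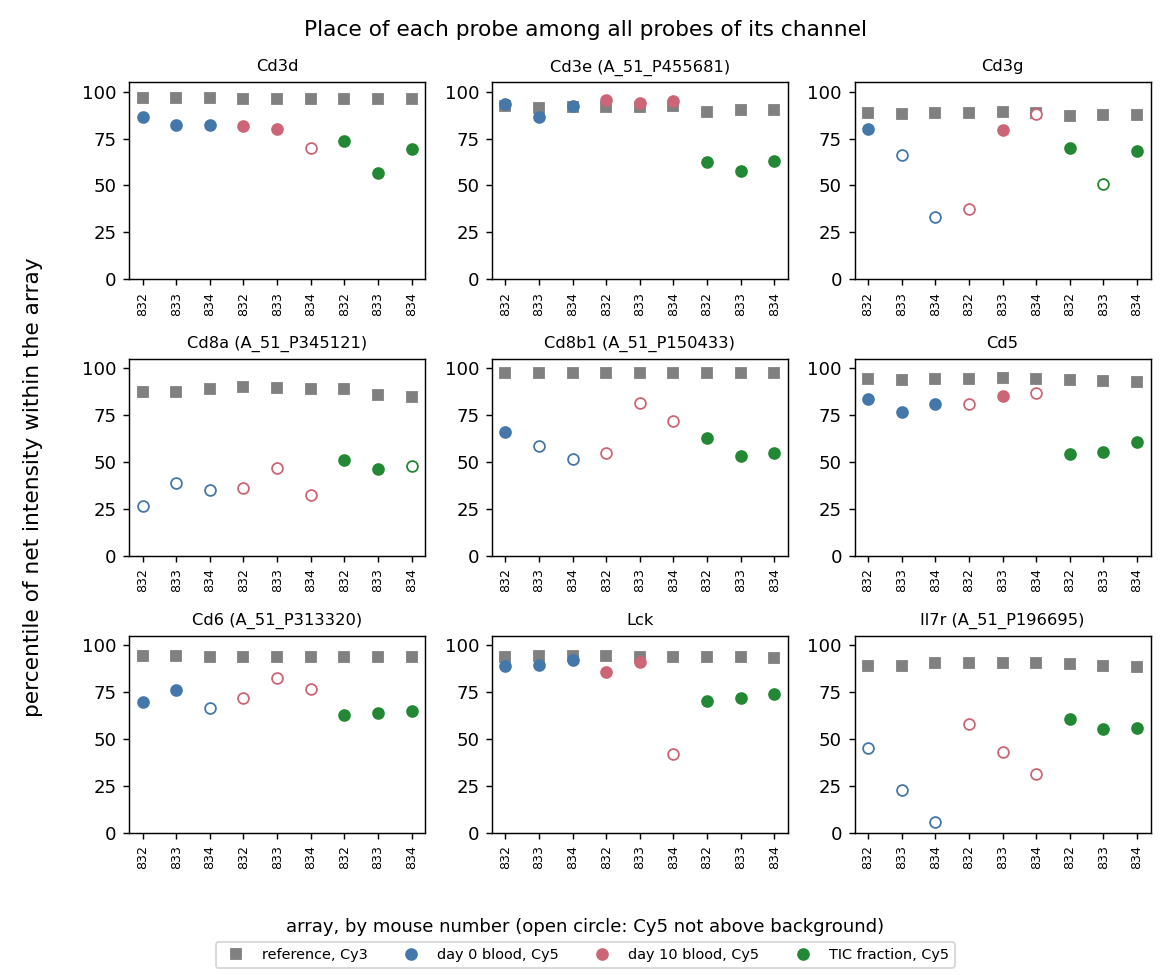
Percentile (0 to 100) of the net intensity of each probe among all probes of the same channel and array, for the reference (grey squares) and the samples (circles, open where not above background). Cd3e sits near the level of its reference in day 0 blood and slightly above it in day 10 blood. The probes shown for Cd3d, Cd8a, Cd8b1 (the chromosome 6 probe), Cd5 and Cd6 sit below theirs on all 9 arrays.

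Among other genes of receptor signalling, some were below the reference in blood and some above. Of 42 probes of a list of T cell receptor signalling genes, 11 were lower and 4 higher on day 0, with a median of -0.12. Skap1, an adaptor protein, was lower at -1.0 ± 0.13 (adjusted p 0.00205) and Tcra, the receptor's alpha chain, at -0.62 ± 0.07 (0.00106), though Tcra was above background in Cy5 on no blood array. Ptprc, the phosphatase CD45 of all leukocytes, was higher at 1.29 ± 0.32 (0.0364), while its partner Ptprcap was lower at -1.23 ± 0.27 (0.0207). On day 10, 2 of the 42 were lower, among them Ptprcap at -1.78 ± 0.27 (0.0103), and none was higher. In the TIC fraction 38 were lower and none higher, with a median of -1.08. Of all probes, 37.5% were called lower and 36% higher there, and 6.81% and 4.59% on day 0. The difference between this list and the members was not tested.

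T lineage genes divided in day 0 blood. Of 32 probes 13 were lower and 3 higher, with a median of -0.19. Thy1, a surface protein of T cells, was lower at -2.07 ± 0.20 (adjusted p 0.000507), and Lef1, a transcription factor of T cells, at -1.01 ± 0.13 (0.00174). The 3 higher ones included Tbx21, a factor shared with NK cells, at 0.74 ± 0.09 (0.00168) and Klf2, which is made by other leukocytes too, at 1.09 ± 0.28 (0.0437). On day 10, 3 of 32 were lower, Thy1 again at -1.23 ± 0.20 (0.0151), and in the TIC fraction 30 were lower and 1 higher. The shares of all probes are those given for the receptor signalling genes.

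Other cell types, some of which can share member transcripts, were read beside the members. Of 6 innate lymphoid probes 1 was lower than the reference on day 0, and 3 were lower and 3 higher in the TIC fraction. Of 12 dendritic cell probes 3 were lower and 1 higher on day 0, and 6 were lower and 4 higher in the TIC fraction. None of 13 NK cell probes was lower than the reference in day 0 blood and 1 was higher, the granzyme Gzma at 2.10 ± 0.36 (adjusted p 0.00683). In the TIC fraction 4 of the 13 were lower and 4 higher. Klre1 was lower there at -1.20 ± 0.14 (6.42e-05), with no TIC array above background, and Gzma higher at 2.27 ± 0.36 (0.000481). The summed net Cy5 of 16 NK probes, which is not scaled between arrays, was 571 to 1230 on day 0, 115 to 445 on day 10 and 2380 to 42300 in the TIC fraction. Of 12 B cell probes 1 was lower and 6 were higher on day 0, among them the antigen receptor chain Cd79b at 1.48 ± 0.30 (0.0149), and all 12 were lower in the TIC fraction. Erythroid probes moved with the members in every group: 9 of 13 were lower on day 0, 6 on day 10 and 13 in the TIC fraction, 1 was higher in each blood, and the medians were -2.34, -0.74 and -6.82. Among macrophage probes 6 of 13 were higher in the TIC fraction and 3 lower, and among hepatoma probes 7 of 10 were higher, with Afp at 5.49 ± 0.19 (1.22e-07), and 3 lower, with Ahsg at -3.12 ± 0.16 (5.8e-07). Of all probes, 4.59% were called higher and 6.81% lower on day 0. In the TIC fraction 36% were called higher and 37.5% lower. No list was tested against these shares. The part of these cells in the members' ratios was not tested.

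**Figure D4:**
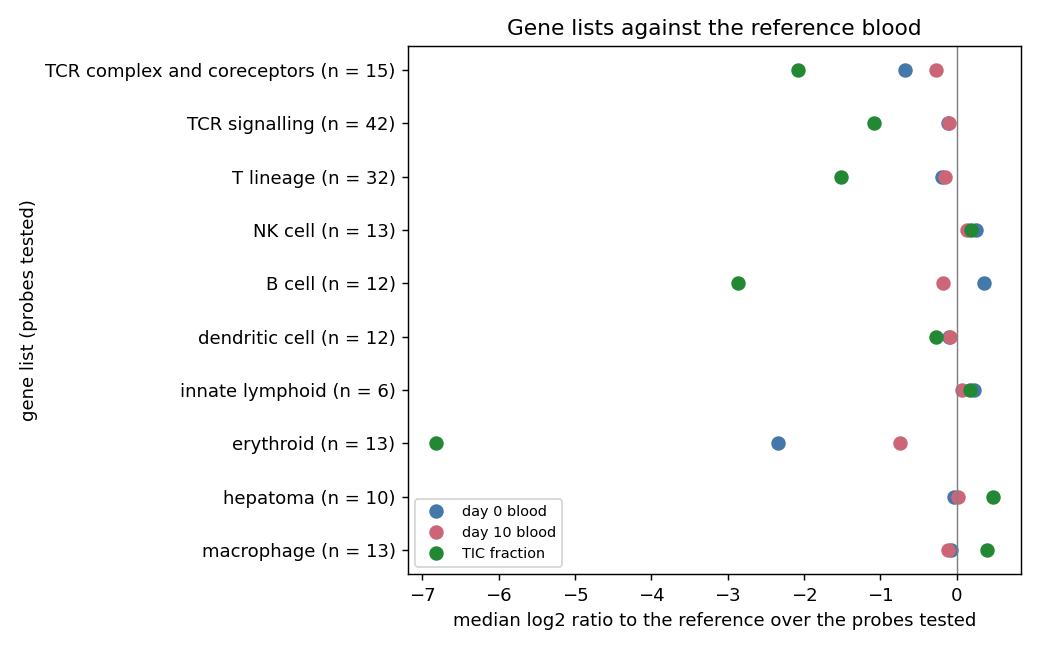
Median log2 ratio to the reference over the tested probes of each gene list, with 1 point per group of 3 arrays. The T cell receptor genes lie at -0.68, -0.27 and -2.08, and the erythroid list reaches -6.82 in the TIC fraction. The NK cell median stays above 0 in all 3 groups, though 4 of 13 NK probes were called lower and 4 higher in the TIC fraction.

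Between day 0 and day 10 blood of the same mice, none of the 9 member probes tested was called (limma, 0 of 9). Of all 19994 probes 0.06% were called, 0.04% higher and 0.02% lower. At an unadjusted p under 0.05, 7 of the 9 members and 2715 of all probes passed. The 9 differences were all above 0, with a median of 0.54 against -0.02 over all probes, but with median centring their median was -0.09 and 7 of 9 were below 0, against a median of -0.14 for all probes. Cd3d differed by 0.55 ± 0.14 (adjusted p 0.161), Cd3e by 0.54 ± 0.17 (0.229) and Cd3g by 0.47 ± 0.16 (0.242). Cd8b1 (chromosome 6) and Cd6 differed by 1.11 ± 0.26 (0.131) and 0.79 ± 0.19 (0.143), with no day 10 array above background, and Il7r was above background in neither blood. Lck differed by 0.09 ± 0.20 (0.956). Without TIC 833, which enters through the shared estimate of spread, 4 of the 9 were called higher: Cd3d (0.041), Cd8b1 (0.0299), Cd6 (0.0348) and Il7r (0.0356). Of all probes 6.38% were called in that fit. A fit to the blood arrays alone called 2, Cd8b1 (0.0491) and Il7r (0.0313), and 4.82% of all probes. Mean raw Cy5 signal was lower on day 10 for all of the 9 but Il7r (1.42 on day 0 and 1.89 on day 10), together with the dimmer day 10 channel. For Cd3d it was 13.2 to 48 on day 0 and 3.93 to 8.69 on day 10, while the values of Cd8b1 (chromosome 6) overlapped. Within the third slide, the only one with both bloods, day 10 of 3 mice minus day 0 of 834 gave 0.31 for Cd3d, 0.38 for Cd3e, 0.54 for Cd8b1 and -0.21 for Lck, against -0.01 over all probes.

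Between the TIC fraction and day 10 blood, 8 of the 9 member probes were called lower and the chromosome 5 probe named Cd8b1 was called higher. That probe was above background in Cy5 on the 3 TIC arrays alone and entered the group tests only through them. Its higher calls against both bloods are thus favoured by the filter and not independent of it. The brightest Il7r probe entered in the same way. Of all probes 30% were called lower and 35.8% higher, 65.7% in all. The median difference was -2.59 for the members and 0.12 for all probes. These directions hold with loess and turn with median centring, which moved the median of all probes to 1.17: there the members' median was 0.30, none was called lower and 2 were called higher, while 8 of 9 still lay below the median of all probes. Cd3d differed by -2.89 ± 0.14 (adjusted p 1.74e-06), Cd5 by -2.67 ± 0.23 (1.84e-05) and Lck by -2.26 ± 0.20 (1.97e-05) with loess, and by 0.55, 0.16 and 0.74 with median centring. Cd3e kept its sign under all alternatives run, from -4.77 to -0.19, and was not called with median centring (-0.19, 0.449). By group means over the 18 member probes, Cd3e had the widest fall in place among all Cy5 probes, from 94 to 95.6 in day 10 blood to 57.6 to 63.1 in the TIC fraction, and Cd5 went from 80.8 to 86.7 down to 54.3 to 60.8. The percentiles of Cd3d, Cd3g, Cd8b1 (chromosome 6), Lck and Il7r (brightest probe) overlapped between these groups, and those of Cd6 did not. Raw net Cy5 was higher in the TIC fraction for Cd3d, at 20.8 to 166 against 3.93 to 8.69 in day 10 blood, and overlapped between the groups for Cd3e, at 22.6 to 58.7 against 30.4 to 49.1. For Cd8b1, Cd6 and Il7r, no day 10 array was above background while all 3 TIC arrays were, so their called differences of -3.58, -2.59 and -1.79 give no fold. No slide held both groups. With slide as a fixed block, which reaches across slides through the day 0 arrays, the members' median was -1.88 and 8 of 9 were below 0.

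Against day 0 blood, again 8 of 9 member probes were called lower in the TIC fraction and the chromosome 5 probe higher, with 30.7% of all probes lower, 32.9% higher and 63.6% called in all. The median was -2.14 for the members and 0.07 for all probes. With median centring the members' median was 0.22 and none was called lower. Within the second slide, with 2 arrays of each group, the members' median was -1.74 and 8 of 9 were below 0. Cd3d differed by -2.34 ± 0.14 (adjusted p 6.06e-06), Cd3e by -2.30 ± 0.17 (1.48e-05) and Cd3g by -1.12 ± 0.16 (0.000347) with loess, and by 0.25, -0.45 and 0.42 with median centring. Cd8b1 (chromosome 6) differed by -2.48 ± 0.26 (6.83e-05), Cd5 by -2.14 ± 0.23 (8.45e-05), Cd6 by -1.81 ± 0.19 (8.1e-05) and Lck by -2.16 ± 0.20 (3.56e-05). With median centring these were 0.20, -0.13, 0.27 and 0.17. Il7r differed by -1.24 ± 0.13 (8.97e-05), and by 0.22 with median centring. It was above background on no day 0 array and on all 3 TIC arrays, so this gives no fold. Mean raw net Cy5, in the brighter TIC channel, was higher for all 9 probes but Cd3e, at 36.1 against 66.2. For Il7r it was 28.2 against 1.42, for Cd8b1 (chromosome 6) 30.9 against 6.88 and for Cd6 43.6 against 11.8. The chromosome 5 probe was higher under each alternative run, by 0.46 to 2.05 against day 10 and 0.52 to 1.96 against day 0 blood. It passed the Cy5 filter through the TIC arrays alone, which favours these higher calls. Its call against day 0 was lost within the second slide alone (0.65, 0.06) and its call against day 10 with slide as a fixed block (0.71, 0.0606). The comparisons of the TIC fraction with each blood share the TIC arrays.

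**Figure D5:**
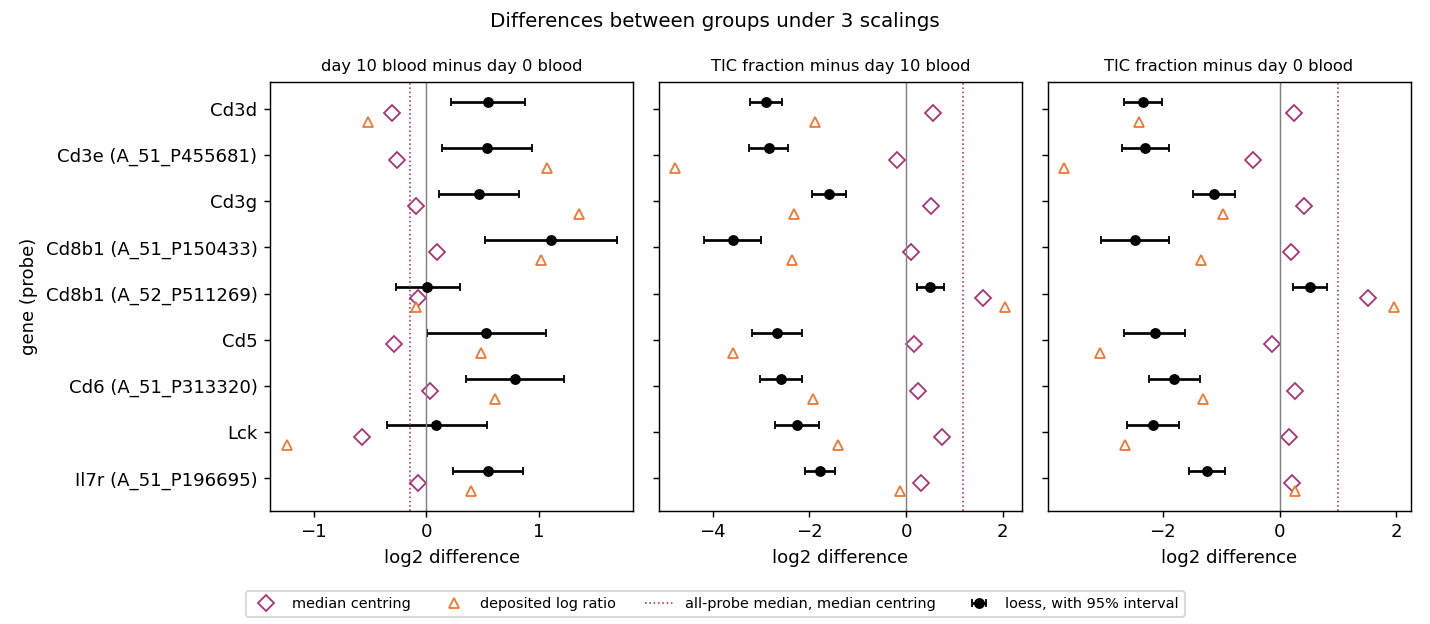
Log2 differences between sample groups for the 9 member probes tested, with loess (black, 95% interval), median centring (diamonds) and the deposited log ratio (triangles). The dotted line is the median of all probes with median centring, 1.17 in the middle panel, and the members other than the chromosome 5 probe lie left of it.

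The choice of scaling set the split of calls over the whole array. With loess 40.3% of called probes were higher than the reference on day 0, 52.5% on day 10 and 49% in the TIC fraction. With median centring these shares were 2.28%, 0.722% and 71.5%, and the medians of all probes were -0.16, -0.28 and 0.54. With the deposited ratio the day 10 share was 20.9%. Between groups, the shares of calls that were higher with loess were 66.7% for day 10 against day 0, 54.4% for TIC against day 10 blood and 51.7% for TIC against day 0. They were 17.3%, 67.8% and 62.1% with the deposited ratio and, for both TIC comparisons, 96.2% and 92.9% with median centring. Below the reference lay 15, 13 and 14 of the 15 member probes with loess in day 0 blood, day 10 blood and the TIC fraction, and 15, 14 and 14 with the deposited ratio. With median centring these were 15, 15 and 14, of which 12, 12 and 14 were called lower. Of all 23491 probes, 5270, 9218 and 5415 were called lower with median centring, and the median of all probes was itself below 0 in both bloods. Below that median lay 13, 12 and 14 of the 15 member probes. The brighter Cd3e probe in day 10 blood was above 0 with loess and the deposited ratio and below 0 with median centring. The sizes moved with the processing: over the alternatives the TIC ratio ran from -5.44 to -2.48 for Cd3d, from -3.89 to -1.34 for Cd3e and from -3.62 to -0.80 for Cd3g. It ran from -5.90 to -2.19 for Cd5, from -4.87 to -1.95 for Cd6, from -3.78 to -1.35 for Lck and from -3.91 to -1.33 for the brightest Il7r probe.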

How the data were processed

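RNA of 9 samples, 3 groups of 3 mice, was measured on 2-colour Agilent arrays. The members and gene lists were chosen with earlier results of these data known. The authors deposited scanner tables of spot intensity with its local background for both dyes, and log10 ratios (Cy5 over Cy3), made with Agilent Feature Extraction 10.5.1.1 per the file headers and 9.1.3.1 per the submitters' processing notes; the deposited series table held the same log10 ratios, with a median of 0 on each array. Detection used the deposited flags for signal well above background.

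From the intensities, spots with non-uniform background (0 to 103 an array) were set aside, normexp with an offset of 50 and loess within arrays were applied with limma 3.58.1 in R 4.3.3, control and outlier spots had weight 0, and spots of a probe were averaged. Ratios to the reference were tested against 0 for 23491 probes well above background on at least 3 of 9 arrays in either channel, and differences between groups for 19994 probes above background on at least 3 arrays in Cy5. One model with 3 group means and no block was fitted, with Benjamini-Hochberg adjustment over all probes at 0.05. Each probe was kept separate. All member probes are named, and from each list up to 3 called probes with the smallest p and up to 2 with the highest intensity. Some list genes that this rule names are not reported here. Probes were named through accessions (23374), symbols (6733) or synonyms (2919) of a GRCm38.p6 table, and 8148 kept the name of the files. Probe positions are those of the files (mm8).

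Mouse numbers in the titles pair the samples, as the same animals gave all 3 samples: deviations from group means correlated at 0.18 to 0.32 between the bloods of a mouse and at -0.06 to 0.06 between blood and TIC fraction. Mice are separate animals, but each gave 1 array per group, so the number of arrays limits the precision. In simulated data with known changes, 88% of log2 changes of size 1 and 97% of size 2 were recovered for day 0 blood against the reference, and 65% and 89% between the bloods. Of the calls, 6.57% and 4.94% were false, and 8.43% for the TIC fraction minus day 0 blood. The simulated log ratios had independent normal noise without background floor, offset or scaling effect. They therefore do not show recovery for dim probes. Alternatives were all spots in normexp, the deposited log ratio, median centring, other filters, 1 probe per gene, mouse or slide as a block, Cy5 alone, fits to the groups compared and leaving out each array.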

Additional observations from a re-analysis of the deposited data

How the results depend on the processing

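Counts of member probes called moved by over 1.5 times as follows. For day 10 blood against the reference (5 called), they were 3 with all spots in normexp, 10 with the deposited log ratio, 12 with median centring and 9 in a fit to the groups compared. For the TIC fraction against the reference (14 called) there were 9 with 1 probe per gene, where 9 were tested. For day 10 against day 0 blood (0 called) there were 2 in a fit to the groups compared. For the TIC fraction against day 10 and day 0 blood (9 called each) there were 2 and 1 with median centring, and 1 and 1 with probes above background in Cy5 on all 9 arrays, where 1 was tested. Counts over all probes moved too. For day 0 blood against the reference (2678) they were 1275 with all spots, 5233 with the deposited ratio and 5393 with median centring. For day 10 blood (785) they were 6833 with the deposited ratio, 9285 with median centring and 3571 in a fit to the groups compared. Between the bloods (12) they were 843 with the deposited ratio, 172 with the strict Cy5 filter, 967 in a fit to the groups compared, 4 with Cy5 alone, and 0 with all spots, median centring, no filter, 1 probe per gene or slide as fixed block. For the TIC fraction against day 10 blood (13145) they were 3405 with the strict filter and 5316 with slide as fixed block, and against day 0 blood (12709) 3343 with the strict filter and 4242 within slide 2. The strict filter tests fewer probes, and the fits within a slide or to some groups use fewer arrays. For the other changes the cause was not tested.

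Median centring reversed the sign of day 10 blood against the reference for Cd3e (-1.15). It reversed TIC fraction minus day 10 blood for Cd3d (0.55), Cd3g (0.51), Cd8b1 (0.11), Cd5 (0.16), Cd6 (0.24), Lck (0.74) and Il7r (0.30), and TIC fraction minus day 0 blood for Cd3d (0.25), Cd3g (0.42), Cd8b1 (0.20), Cd6 (0.27), Lck (0.17) and Il7r (0.22). The deposited ratio reversed TIC fraction minus day 0 blood for Il7r (0.27).

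Leaving out 1 array gave 7 to 11 member calls for day 0 blood against the reference, 2 to 7 for day 10 blood, 13 to 15 for the TIC fraction, 0 to 4 between the bloods and 9 in each fit of the TIC fraction against either blood. Over all probes it gave 1087 to 5394, 198 to 1997, 15175 to 17948, 0 to 1276, 11244 to 15000 and 10800 to 14751. The mouse as replicate block changed no count of member calls, which stayed at 10, 5, 14, 0, 9 and 9, with 2480, 698, 16922, 16, 12814 and 12295 of all probes called. Dim Cy5 signal limits the blood values, since 7 of 15 member probes on day 0 and 10 of 15 on day 10 were above background on no array. Slide was not balanced over the groups.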
